A study of Bos taurus with 111 samples.

Results

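HES1 (ENSBTAG00000000569) was followed through the muscle transcriptome of steers, either Charolais (CH) or Holstein-Friesian (HF), as 1 gene of the 24616 counted. It was chosen by its place in the study's own list of genes that differed between low and high residual feed intake in CH steers on the first high concentrate diet, so its values in those libraries chose it and are given below as a description with no test. Of the 111 libraries, 104 were used. The choice of libraries left out the 6 with fewer than 1000000 reads counted on genes and the library titled 571P3M, a CH-ZG H-RFI library in which ALB, the gene of the plasma protein albumin, stood at 101449 CPM (read counts scaled to a library total of 1000000), against a highest value of 8576 CPM in the 104 libraries.

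HES1 encodes a basic helix-loop-helix repressor of transcription and is a classical target of the Notch pathway. In that pathway a ligand on a neighbouring cell leads to cleavage of the Notch receptor, whose intracellular part enters the nucleus and, with the DNA-binding protein RBPJ, switches on the HES and HEY genes. In skeletal muscle, Notch signalling is known for keeping satellite cells, the stem cells of the fibre, quiescent and undifferentiated, and HES1 is also active in endothelial and other cells of the tissue and can respond quickly to serum and stress.

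Residual feed intake (RFI) is the difference between the intake of an animal and the intake predicted from its weight and growth, so that L-RFI steers eat less than predicted and H-RFI steers eat more. The labels also name the change in back fat as a predictor, which the study's methods do not. Biopsies of M. longissimus thoracis et lumborum were taken at the end of each of 3 measurement periods, and polyadenylated RNA was sequenced from a stranded library kit. The diets of those periods were concentrates without restriction with a limited allowance of grass silage (H1), zero-grazed grass (ZG) and the concentrate diet again (H2). By the labels, CH steers were 283 days old (SD 18.3) and HF steers 306 days (SD 7.7) at the start. The mean age of HF steers is slightly higher in the study's methods. The labels name no treatment other than the diet, which all steers received in the same order. Age and diet therefore changed together from H1 to ZG and from ZG to H2, and cannot be told apart there. Between H1 and H2 the diet was the same, while age and the diets fed before differed together. Crossing breed, phase and RFI class gave 12 groups of 7 to 11 libraries, from 77 steers, of which 25 were sampled in more than 1 phase. Whether a biopsy held fewer cells of a type or less HES1 RNA per cell cannot be told apart in such bulk samples.

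The 104 libraries held 2201765 to 52552057 reads on genes. HES1 was counted with 0 to 1177 reads per library, with a median of 166.5, and 99.9% of the reads assigned to HES1 by strand lay on the strand that the kit marks. The share of all counts taken by the 10 highest genes had medians of 29.8% in HF-H1 and 39.8% in HF-H2, with the other breed and phase groups between, and the values that moved with HES1 are given beside the results. Counting limits quoted for single libraries cover counting error only.

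HES1 was a gene of middling abundance in this muscle. Its median over the 104 libraries was 9.65 CPM, and its mean was 11.3 CPM ± 7.82 (SD, n = 104). That median was higher than the median of 52.4% of the 10291 genes that reached 1 CPM in at least 50% of the libraries. CPM is not a level per transcript length, so this rank compares read shares and not numbers of transcripts.

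The spread between libraries was wide. HES1 lay between 5 and 15 CPM in 70 libraries, above 20 CPM in 12 and under 3 CPM in 8. The highest value, 49.2 CPM, came from the H-RFI HF steer 2069 in H1, followed by 38.3 CPM in the L-RFI CH steer 1816 in H1. The lowest came from the H-RFI CH steer 1843 in ZG, with 0 HES1 reads of 4534891, which allows a level of up to 0.662 CPM, counted as 3 reads of that library. In that library the 10 highest genes took 46.2% of the counts and 7536 genes reached 1 CPM.

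In order of their medians, the 12 groups ran from CH-H1 L-RFI to CH-ZG L-RFI. CH-H1 L-RFI steers ranged from 6.11 CPM through a median of 19.0 to 38.3 CPM (n = 8). HF-ZG H-RFI steers came next, from 5.52 through 12.3 to 26.4 CPM (n = 10). Those groups overlapped, although the gap of 6.68 CPM between their medians was slightly wider than the smaller of their SDs, 6.63 CPM.

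The next groups in the order lay close together. HF-H2 H-RFI steers ran from 2.60 through 12.0 to 21.6 CPM (n = 8), and HF-ZG L-RFI steers from 3.14 through 10.8 to 24.8 CPM (n = 9). HF-H1 H-RFI steers ran from 6.63 through 10.5 to 49.2 CPM (n = 11), and CH-H1 H-RFI steers from 6.02 through 9.31 to 20.0 CPM (n = 10). All 4 ranges overlapped their neighbours, with medians less than 1 SD apart.

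The lower part of the order held 4 CH groups and 2 HF groups. CH-ZG H-RFI steers ran from 0 through 9.28 to 17.8 CPM (n = 8), and HF-H1 L-RFI steers from 4.24 through 8.11 to 19.3 CPM (n = 9). HF-H2 L-RFI steers ran from 4.93 through 7.99 to 25.6 CPM (n = 8), CH-H2 H-RFI steers from 2.75 through 7.51 to 27.0 CPM (n = 7) and CH-H2 L-RFI steers from 1.82 through 7.47 to 14.3 CPM (n = 7). The 1.82 CPM (steer 856) rested on 4 reads and lay near the counting limit of that library, 1.36 CPM. CH-ZG L-RFI steers were lowest, from 2.499 through 6.13 to 15.6 CPM (n = 9). Here too no pair of neighbours differed by more than its spread. This order rests on plain CPM, and the order of the means changed with TMM-normalized CPM, which scales each library by the bulk of its genes. With it the mean was 8.42 in CH-ZG L-RFI and 7.26 in CH-H2 L-RFI, against 7.05 and 7.71 CPM without it. HF-H2 L-RFI had a mean of 12.6 with it and 11.8 without. CH-H1 L-RFI stayed highest, at 17.3.

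**Figure D1:**
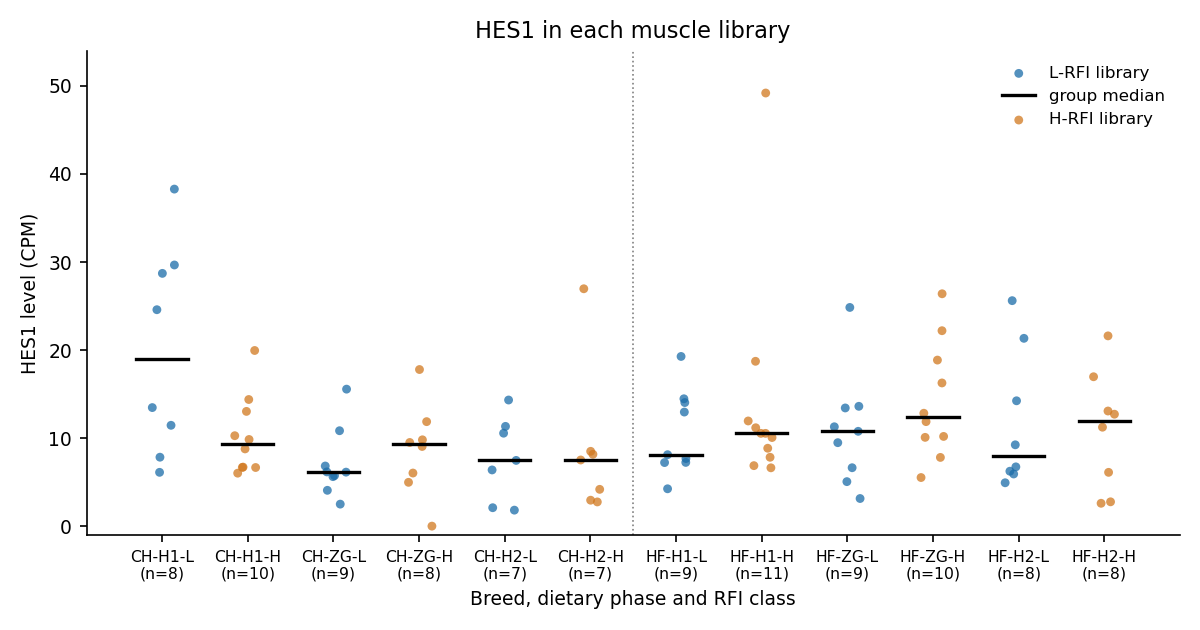
HES1 level (CPM, y axis) in each of the 104 libraries (points), in the 12 groups of breed, dietary phase and RFI class (x axis), with the group median as a bar. CH-H1 L-RFI libraries reach 38.3 CPM around a median of 19.0, and the medians of the other 11 groups lie between 6.13 and 12.3 CPM.

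The contrast that chose HES1 was the one between RFI classes in CH-H1. Among the L-RFI steers, HES1 was at 38.3 CPM in steer 1816, 29.7 in steer 1101, 28.7 in steer 1100 and 24.6 in steer 1831, all above the highest H-RFI steer (steer 307, 20.0 CPM). The other 4 L-RFI steers lay within the H-RFI range. The mean was 20.0 CPM ± 11.8 (SD, n = 8) in L-RFI and 10.2 CPM ± 4.44 (SD, n = 10) in H-RFI steers, a ratio of means of 1.96.

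On the log2 scale the edgeR fit gave a difference of 0.96 (SE 0.26) between L-RFI and H-RFI steers of CH-H1, and the difference of the mean log2(CPM + 0.5) was 0.78, or 0.62 to 0.98 when any 1 steer was left out. The L-RFI libraries of CH-H1 were shallower, with a median of 13500600 reads on genes against 26941900, and their 10 highest genes took a median of 31.8% of the counts against 33.9%. With the share of the 10 highest genes added to the model, an alternative chosen after seeing the data, the difference was 0.94.

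In the 5 breed and phase groups that played no part in the choice, HES1 did not pass the test between RFI classes. Genes were called at an adjusted p under 0.1 with a fold change over 1.5, and in each of these 5 comparisons 0.00% of all genes tested were called by edgeR's quasi-likelihood test, so the background holds no calls to read HES1 against. At an unadjusted p under 0.05 there were 1228 of 10571 genes tested in HF-ZG and 317 of 10812 in HF-H1. In the other groups there were 89 of 10070 in CH-H2, 79 of 9823 in CH-ZG and 72 of 9936 in HF-H2. These counts moved with the processing, from 1228 to 259 in HF-ZG with the share of the 10 highest genes in the model and from 79 to 590 in CH-ZG with all libraries. DESeq2's Wald test called 3 genes in CH-H2 and 1 in HF-ZG, edgeR's exact test called 1 in CH-H2, and neither called any in the other groups.

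Among CH steers, the log2 difference of HES1 between L-RFI and H-RFI was −0.02 (SE 0.38) in ZG and −0.12 (SE 0.40) in H2, each with an adjusted p of 1.00 by edgeR's quasi-likelihood test. In HF steers it was −0.17 (SE 0.29, adjusted p = 1.00) in H1, −0.16 (SE 0.27, adjusted p = 0.705) in ZG and 0.21 (SE 0.34, adjusted p = 1.00) in H2. None of these 5 differences exceeded its SE.

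Averaged over these 5 groups in 1 limma voom model with the steer as a block, the L-RFI minus H-RFI difference was 0.04 (SE 0.17, adjusted p = 0.894). Of all genes, 0.00% were called in that contrast, with 702 genes at an unadjusted p under 0.05, or 137 with the share of the 10 highest genes in the model. The quasi-likelihood test of edgeR without the block called 0 as well, with 607 at that p. Single steers set the sign in several groups. Without the highest steer of HF-H1 (steer 2069) the difference there was 0.21, and without the highest steer of CH-H2 (steer 1320) it was 0.35, with adjusted p = 1.00 in both.

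**Figure D2:**
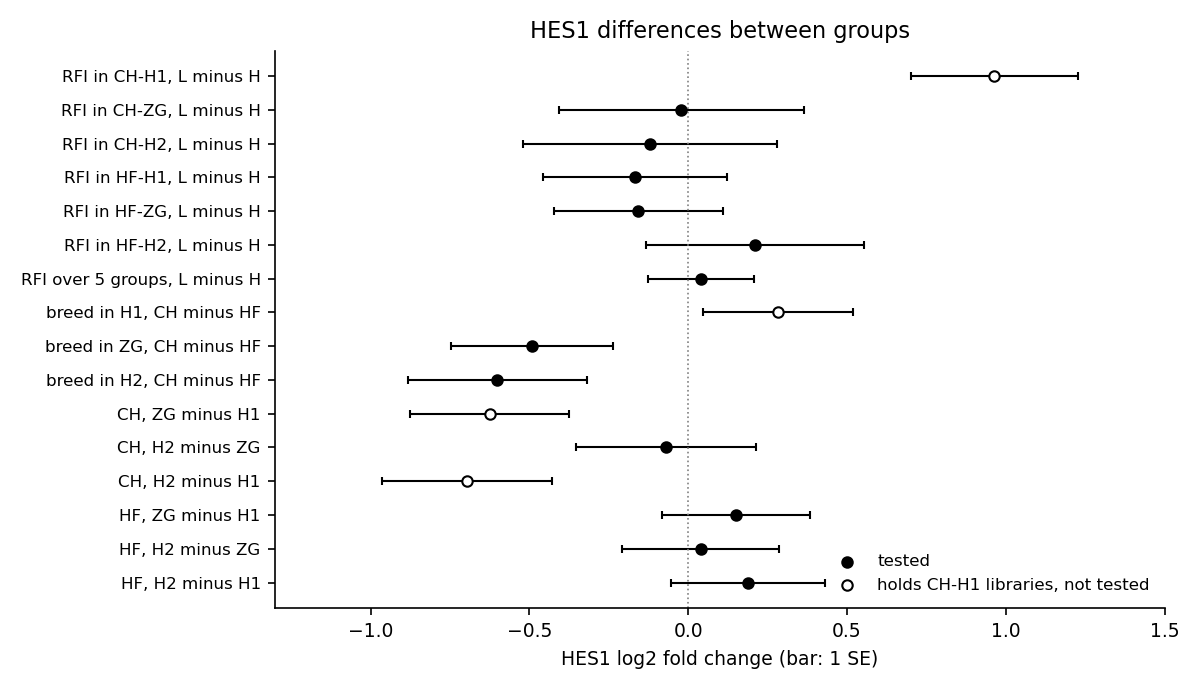
Log2 fold change of HES1 (x axis, bars 1 SE) for each comparison (y axis), with open points for the comparisons that hold the CH-H1 libraries on which HES1 was chosen. The 6 filled RFI points lie between −0.17 and 0.21, and the filled breed points at −0.49 and −0.60.

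Between breeds, the medians of HES1 were lower in CH than in HF in ZG and H2, and neither difference passed the test. In ZG the CH libraries ran from 0 through a median of 6.16 to 17.8 CPM (n = 17) and the HF libraries from 3.14 through 11.3 to 26.4 CPM (n = 19). The log2 difference of CH minus HF in ZG was −0.49 (SE 0.25), with p = 0.0562 and adjusted p = 0.338 in the limma voom model with 10291 genes. Of all genes, 1.41% were called there.

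In H2 the CH libraries ran from 1.82 through 7.49 to 27.0 CPM (n = 14) and the HF libraries from 2.60 through 10.2 to 25.6 CPM (n = 16). The difference was −0.60 (SE 0.28), with p = 0.0358 and adjusted p = 0.599 by limma, against a background of 0.204% of genes called. The ranges of the breeds overlapped over most of their length in both phases.

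In H1 the CH median was 10.9 CPM (n = 18) and the HF median 10.3 CPM (n = 20). The CH minus HF difference there was 0.28 (SE 0.24), and no test is given, since its CH libraries are the ones on which HES1 was chosen. The share of the 10 highest genes had a median of 37.6% in CH-ZG against 31.3% in HF-ZG, and of 34.8% in CH-H2 against 39.8% in HF-H2, so it was higher in CH in the former phase and lower in the latter. With that share in the model, the breed difference was −0.31 in ZG and −0.70 in H2.

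Markers of other cell types were measured in the same libraries. In the ZG comparison of the breeds 1 of the 2 adipocyte markers measured was called, FABP4, a fatty acid carrier of fat cells, with a log2 difference of −1.93. The 3 leukocyte markers with a name (CD3E, LYZ and PTPRC) had a median difference of −1.23 and 0 calls. In H2 the medians were −1.89 for the adipocyte and −0.93 for the leukocyte markers, and SOX18, an endothelial transcription factor, was at −1.24, with 0 calls among them. SOX18 was at −0.17 (SE 0.45) in ZG, also not called. The 3 plasma protein genes of liver had medians of −0.95 in ZG and −0.61 in H2, also with 0 calls. In H1, given with no test, the medians were −0.72 for the adipocyte markers, −0.91 for the leukocyte markers and −0.91 for the plasma protein genes. SOX18 was at −0.72 (SE 0.43) there, while the HES1 difference in H1 was 0.28. The part of these markers in the HES1 differences was not tested.

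Across the phases, no HES1 difference passed the test in HF. Their medians were 10.3 CPM in H1 (n = 20), 11.3 in ZG (n = 19) and 10.2 in H2 (n = 16). The log2 differences were 0.15 (SE 0.23) for ZG minus H1, 0.04 (SE 0.25) for H2 minus ZG and 0.19 (SE 0.24) for H2 minus H1. Their adjusted p-values by limma were 0.909, 0.944 and 0.588, against backgrounds of 0.554%, 6.31% and 15.4% of genes called. The 10 highest genes took a median share of 29.8% of the counts of HF steers in H1, 31.3% in ZG and 39.8% in H2. With that share in the model the differences were 0.15, 0.28 and 0.43, and the last had p = 0.0637 and adjusted p = 0.194 by limma.

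In CH the medians were 10.9 CPM in H1 (n = 18), 6.16 in ZG (n = 17) and 7.49 in H2 (n = 14). Between ZG and H2, the comparison free of the libraries that chose HES1, the difference was −0.07 (SE 0.28, adjusted p = 0.991 by limma), with 1.00% of all genes called. With the share of the 10 highest genes in the model it was −0.11. The differences that hold the CH-H1 libraries were −0.63 (SE 0.25) for ZG minus H1 and −0.70 (SE 0.27) for H2 minus H1, given with no test.

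Those CH values were also taken by class, with no test of the difference between classes. From H1 to ZG, the mean log2(CPM + 0.5) of HES1 moved by −1.35 (SE 0.41) between the L-RFI groups and by −0.58 (SE 0.59) between the H-RFI groups. Without steer 1843 and its 0 reads, left out after seeing the data, the latter was −0.05 (SE 0.28). These SEs treat the groups as independent. Steers 1100 and 1831 are in both L-RFI groups, and steers 307 and 449 in both H-RFI groups. The medians of the L-RFI groups were 19.0 and 6.13 CPM, while those of the H-RFI groups were 9.31 and 9.28 CPM. The high L-RFI libraries of CH-H1 enter both the RFI difference and these phase differences.

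Immediate-early genes, which are transcribed within minutes of a stimulus, changed between phases where HES1 did not pass. Of the 14 on a fixed list, 9 had a name, and all 9 were called lower in H2 than in ZG in CH, with a median log2 difference of −1.79 against −0.02 over all genes. FOS, a subunit of the AP-1 transcription factor, fell by 4.10 on the log2 scale and JUN, its partner, fell by 1.79. In HF 8 of the 9 were called lower in H2 than in ZG, with a median of −1.35 against −0.04 over all genes, and 3 of the 9 (ZFP36, CCN1 and JUNB) were called higher in ZG than in H1. Of all genes, 1.00% were called in either direction in CH H2 minus ZG, 6.31% in HF H2 minus ZG and 0.554% in HF ZG minus H1.

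HES1 moved by −0.07 and 0.04 on the log2 scale in those H2 minus ZG comparisons. The glucocorticoid-responsive genes DDIT4, an inhibitor of mTOR signalling, and PDK4, which restrains glucose oxidation, were also called lower in H2 than in ZG in both breeds, out of 3 named on that list. SOX18 was called lower in H2 than in ZG in CH, by a log2 difference of −1.99, and was at −0.92 in HF, not called. Both adipocyte markers were called higher in HF, with a median of 1.29, and had a median of 1.08 in CH with 0 calls. Names were available only for genes that the study had listed as differing in these same samples, so the counts of these lists are not independent evidence of a direction.

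Steers sampled in more than 1 phase gave a paired view. In HF, 6 steers had H1 and ZG libraries, and HES1 was lower in ZG in 5 of them. Steer 2069 went from 49.2 to 18.9 CPM and steer 2064 from 18.7 to 5.05, while steer 5635 went from 10.5 to 13.6. The mean within-steer difference of log2(CPM + 0.5) was −0.68 (SE 0.33, n = 6), with p = 0.156 by a two-sided exact sign-flip permutation test, which cannot go below 0.0313 with 6 pairs, and adjusted p = 0.469 over the 3 phase pairs.

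That value has the opposite sign to the 0.15 of the HF groups above, which hold mostly other steers. With TMM-normalized CPM, where TMM scales each library by the bulk of its genes, the HF mean was −0.36. From H1 to H2, HES1 was lower in 4 of 5 HF steers with a mean of −0.51 (SE 0.40, exact permutation p = 0.313), but with TMM the mean was 0.24 and 2 of the 5 were lower, so the direction depended on the scaling.

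In the CH steers, 4 of 5 were lower in ZG than in H1, with a mean of −1.58. Steer 1816 went from 38.3 to 9.50 CPM, steer 1100 from 28.7 to 6.83 and steer 1831 from 24.6 to 4.07, and those are 3 of the 4 high L-RFI libraries of CH-H1. Steer 307, H-RFI in both phases, went from 20.0 to 4.98 CPM and steer 449 from 6.67 to 9.05. No test is given for CH pairs with H1, nor for the 11 steers of both breeds together, whose mean was −1.09 (SE 0.31) with 9 of 11 lower.

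From ZG to H2, 7 steers had both libraries and split evenly. HES1 was higher in H2 in 4 and lower in 3, with a mean of 0.02 (SE 0.51, exact permutation p = 1, adjusted p = 1). Steer 310 went from 15.6 to 2.09 CPM, steer 5612 from 11.3 to 25.6 and steer 1492 went from 2.499 to 6.38 CPM.

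**Figure D3:**
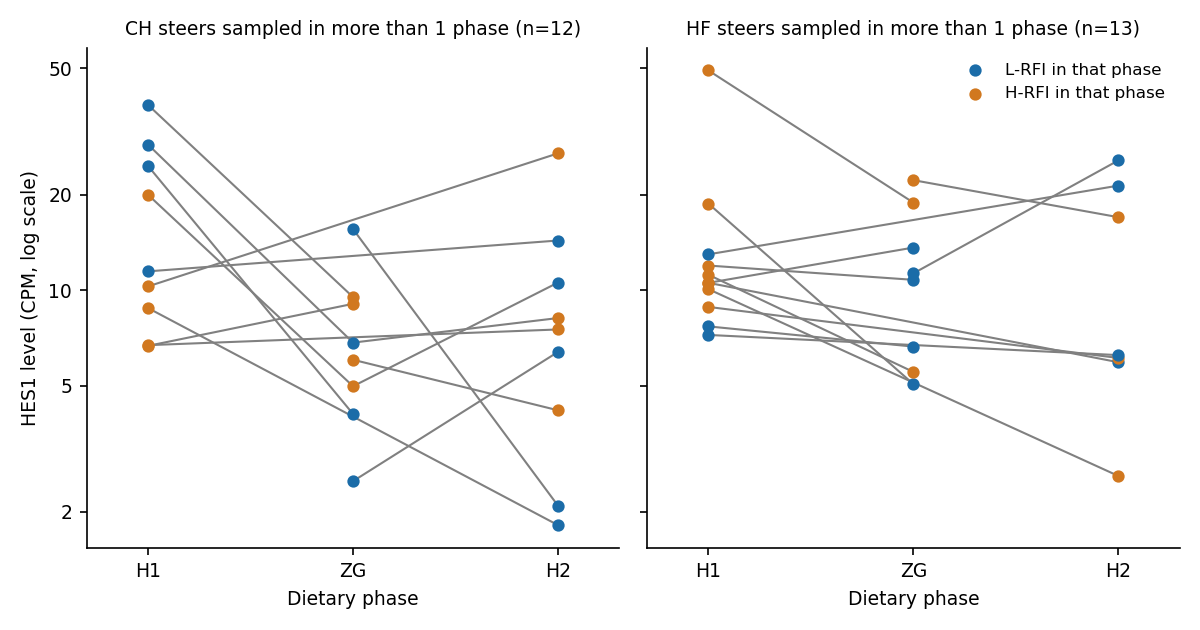
HES1 level (CPM, log axis) of the 25 steers sampled in more than 1 phase, CH on the left and HF on the right, with lines joining the libraries of a steer and colours for its RFI class in that phase. From H1 to ZG the line descends in 4 of 5 CH steers and 5 of 6 HF steers.

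Within steers, HES1 moved both ways with the RFI class. In 8 steers the class changed between phases, and the mean log2(CPM + 0.5) of HES1 was higher in the L-RFI phase in 4 and lower in 4, with a median log2 difference of −0.04 and a range from −2.001 (steer 856) to 1.96 (steer 1816). The L-RFI library of steer 856 held 4 HES1 reads, at 1.82 CPM against a counting limit of 1.36 CPM. By mean CPM, HES1 was higher in 3 and lower in 5, since steer 307, which had 2 H-RFI libraries to average, changed side. Among the 4 of them without a CH-H1 library, all HF, it was higher in the L-RFI phase in 1 and lower in 3. Class and phase changed together in these steers and cannot be told apart.

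A relation between the libraries of a steer was not detected. With group means subtracted, the first and second libraries of the 25 steers had Pearson's r = 0.06 (permutation p = 0.764) and Spearman's rho = 0.10 (permutation p = 0.626), and r was 0.12 without the 2 steers farthest from the median. Within breeds r was −0.25 in 12 CH steers and 0.43 in 13 HF steers, or −0.06 and 0.21 with TMM-normalized CPM. The counts of HES1 varied between steers of a group with a biological coefficient of variation of 0.388 to 0.521 in the 6 edgeR fits, above that of 52.3% to 85.9% of the genes.

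Library composition moved with HES1. Over 77 steers, 1 library each with group means subtracted, HES1 log2(CPM + 0.5) was related to the share of the 10 highest genes with r = −0.63 and rho = −0.63. For each the permutation p was 1e-05, the smallest that 100000 permutations can give, and the adjusted p over 9 measures was 4.5e-05, and r was −0.60 without the 2 farthest steers. The number of genes at 1 CPM or more gave r = 0.67 and rho = 0.64 (permutation p = 1e-05, adjusted p = 4.5e-05 for each) and r = 0.61 without the 2 farthest. Library depth gave r = 0.43 (p = 0.00015, adjusted p = 0.00045) and rho = 0.39 (p = 0.00047, adjusted p = 0.00141) by permutation, and r = 0.43 without the 2 farthest.

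After TMM scaling the corresponding values were r = −0.32 for the share of the 10 highest genes, 0.39 for the number of genes and 0.32 for depth. Their adjusted permutation p-values were 0.0118, 0.00486 and 0.0118 for r, and 0.140 for each rho. Without steer 1843, whose library held 0 HES1 reads, they came to −0.23, 0.22 and 0.21 with TMM, each with an adjusted permutation p of 0.189. By construction, a higher share of the counts on a few genes leaves a lower CPM for the others. The median r of all 10291 genes with HES1 was 0.50 on the CPM scale against 0.10 with TMM.

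**Figure D4:**
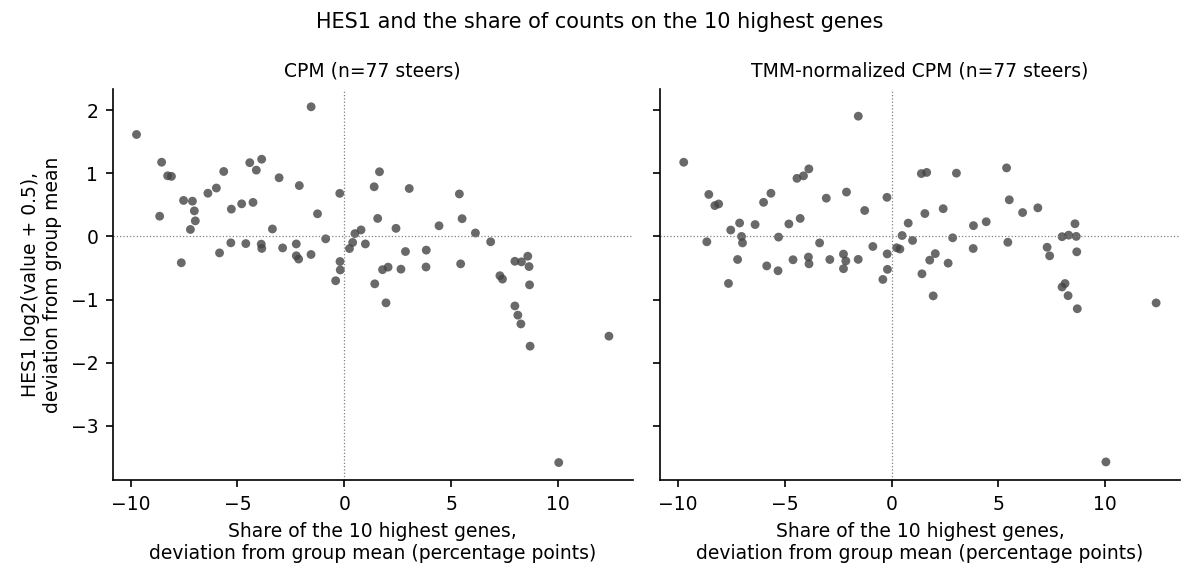
Deviation of HES1 from its group mean (y axis, log2(value + 0.5)) against the deviation of the share of the 10 highest genes (x axis, percentage points) in 77 steers, with CPM on the left and TMM-normalized CPM on the right. The downward slope has r = −0.63 with CPM and −0.32 with TMM, and the lowest point is steer 1843.

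Of the marker lists, 3 passed the test against no correlation with HES1 on the CPM scale. Each r lay below 0.50, the median r of single genes with HES1 on that scale. The summed glucocorticoid-responsive genes (DDIT4, FOXO1 and PDK4) gave r = 0.37 (permutation p = 0.00065, adjusted p = 0.00146), rho = 0.31 (p = 0.00619, adjusted p = 0.0139) and r = 0.35 without the 2 farthest steers. The immediate-early genes gave r = 0.35 (permutation p = 0.0014, adjusted p = 0.00252), rho = 0.29 (p = 0.0112, adjusted p = 0.0201) and r = 0.37 without the 2 farthest. The leukocyte markers gave r = 0.28 (permutation p = 0.0141, adjusted p = 0.0212), rho = 0.28 (p = 0.0145, adjusted p = 0.0218) and r = 0.32 without the 2 farthest. Without steer 1843, left out after seeing the data, the immediate-early genes (r = 0.24, adjusted permutation p = 0.0564) and the leukocyte markers (r = 0.25, adjusted permutation p = 0.0542) no longer passed, while the glucocorticoid-responsive genes did (r = 0.34, adjusted permutation p = 0.00596).

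None of the 3 held with TMM-normalized values, where r was 0.10, 0.19 and −0.0042 in the same order, with adjusted permutation p-values of 0.416, 0.172 and 0.970. The adipocyte markers gave r = 0.19 (rho = 0.17, permutation p = 0.103 and 0.129, adjusted p = 0.133 and 0.165, r = 0.19 without the 2 farthest). The plasma protein genes of liver gave r = −0.06 (rho = −0.09, permutation p = 0.610 and 0.444, adjusted p = 0.610 and 0.444, r = −0.09 without the 2 farthest). SOX18, the only endothelial marker with a name, gave r = −0.10 (rho = −0.09, permutation p = 0.375 and 0.415, adjusted p = 0.422 and 0.444, r = −0.13 without the 2 farthest).

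The other genes of the Notch pathway could not be set beside HES1. Lists were fixed for the receptors, ligands, cleavage enzymes, nuclear complex and modulators, for the other HES and HEY genes, for the Groucho corepressors of HES1, for the ID genes and for the myogenic regulators. Of the 135 genes on all lists, 23 could be paired with an identifier, and 0 of these are Notch receptors, ligands, modulators, other HES or HEY genes or myogenic regulators. Those genes were not analysed here, nor were markers of muscle fibres, mural cells and fibroblasts, so the tissue label was not checked against them.

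The genes whose deviations were most like those of HES1 over the 77 steers carried no name here. By Pearson's r on log2(CPM + 0.5), ENSBTAG00000033136 was closest with r = 0.78, followed by ENSBTAG00000017869 with r = 0.76, and the most opposite were ENSBTAG00000003390 with r = −0.65 and ENSBTAG00000003956 with r = −0.64. ENSBTAG00000033136 also ranked 1 with TMM, at r = 0.67. Of the 10 closest, 8 were also among the 10 closest with TMM and 2 by Spearman's rho, and of the 5 most opposite 0 were shared with TMM and 1 with Spearman's rho. These values share library depth and composition and are a description.

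Of the 118 genes of this set with a name, the closest was APOLD1, an early-response gene of vascular endothelium, with r = 0.74 (rank 44 of the set) and r = 0.57 with TMM (rank 61). CCN1, a matrix protein made soon after mechanical or growth factor stimulation, had r = 0.63 (rank 2610), and 0.46 with TMM (rank 999). JUNB, an AP-1 subunit, had r = 0.50 (rank 5124), close to the median of all genes, and 0.43 with TMM (rank 1377). The other 7 immediate-early genes lay below that median, from 0.43 for ZFP36 to 0.24 for EGR1, 0.22 for NR4A1 and 0.15 for FOSB. With TMM, where the median of all genes was 0.10, these genes lay on both sides of it. FOS (0.28), ZFP36 (0.23), FOSB (0.20), JUN (0.19) and BTG2 (0.13) were above it, and EGR1 (0.07) and NR4A1 (0.03) below. The lowest of the named genes was CLPTM1 with r = −0.62, and −0.41 with TMM. The mitochondrial genes MT-CO3 and MT-ND3 had r = −0.50 and −0.47, which came to −0.25 and −0.24 with TMM. These named genes were singled out after their values were seen.

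In CH-H1, the L-RFI minus H-RFI log2 difference of CCN1 was 0.31 (SE 0.28) and that of JUNB 0.41 (SE 0.30), beside 0.96 for HES1. Over the 9 immediate-early genes the median of that difference was 0.31, with 6 of 9 above 0, against −0.04 over all genes. EGR1, a zinc finger factor of the same class, had the highest value at 1.38 (SE 0.55) and BTG2, an antiproliferative gene, the lowest at −0.78 (SE 0.51). The other lists moved in that contrast as well. The 3 plasma protein genes had a median of 1.00 with all above 0, both adipocyte markers were below 0 with a median of −0.87, and SOX18 was at −1.14 (SE 0.44). The glucocorticoid-responsive genes had a median of 0.26 with 2 of 3 above 0, and the leukocyte markers −0.36 with 1 of 3 above 0. The part of these in the HES1 difference was not tested. No test is given for these, as the names come from the study's lists of these samples.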

How the data were processed

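The authors deposited raw counts per gene, 1 set per library: reads were trimmed, aligned with STAR (2.5.1) and counted with its GeneCounts mode for Ensembl genes. The study's methods name the genome ARS-UCD1.2, whereas the submitters' processing notes name UMD3.1, so no coordinates are given. Counts on the reverse strand were used, and 0 pairs of libraries were identical. CPM was computed from the gene counts of each library. With 104 libraries, genes at 1 CPM or more in at least 50% of a fit's libraries were kept and scaled by TMM. RFI classes were compared within breed and phase by edgeR's quasi-likelihood test, in which no steer occurs more than once, and breeds and phases by limma voom over all 104 libraries with 12 group means and each steer as a random block (duplicateCorrelation, consensus value 0.0966). P-values were adjusted by Benjamini and Hochberg over all genes tested. Exact sign-flip tests and permutation tests were two-sided, used a pseudocount of 0.5 CPM and an adjusted p under 0.05, and correlations took the earliest library of each steer. Pairing rests on the steer numbers in the labels. The p-values of the edgeR tests and of the correlations measure the spread between steers, and those of the sign-flip tests the spread of within-steer differences. The limma p-values measure the spread between libraries, with the steer as a block. With 1 library per steer and phase, spread between steers cannot be told apart from spread between biopsies.

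The interaction of breed and phase and the other comparisons that hold CH-H1 libraries were fitted, but no test of them is given. HES1, the lists and the alternatives were chosen with earlier results of these data known. Names came from the study's supplementary list of differing genes, which paired 159 identifiers, 151 of them in the files, with symbols. The named genes were HES1, the list genes past the thresholds, the 10 most and 5 least similar genes, and a few with a name chosen afterwards. The alternatives were DESeq2's Wald test, the exact test of edgeR, RLE size factors, no filter on low counts, unstranded counts, all 111 libraries, no block, a pseudocount of 2, TMM-normalized CPM, Spearman's rho and each steer left out in turn. Those added after seeing the data were the share of the 10 highest genes as a covariate, the correlations with that share and with the number of genes at 1 CPM or more, HF steers alone, and leaving out steer 1843. Simulated counts with known changes were run through 2 fits, edgeR's quasi-likelihood fit for RFI in HF-ZG and limma voom without the block. The limma voom fit with the block was not run on simulated counts. The R packages limma 3.58.1, edgeR 4.0.16 and DESeq2 1.42.0 were run in R 4.3.3, and pandas 2.3.3, scipy 1.17.1, numpy 2.4.6 and matplotlib 3.10.9 in Python 3.11.15.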

Additional observations from a re-analysis of the deposited data

Results flagged for a closer look

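In 2 of the 11 groups of 4 to 10 libraries, the highest HES1 value stood apart from the rest of its group by Dixon's ratio, which compares the gap to the nearest library with the whole range. Steer 1320 was at 27.0 CPM in CH-H2 H-RFI, where the other 6 libraries lay at or under 8.50 CPM. Steer 2094 was at 24.8 CPM in HF-ZG L-RFI, where the next library was at 13.6 CPM. Chance marks about 1 in 20 groups in this way if the values are normally distributed, and that rate was not checked for CPM. HF-H1 H-RFI, with 11 libraries and steer 2069 at 49.2 CPM, is too large for that check.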

How the results depend on the processing

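The differences below are log2 fold changes of HES1. No RFI difference outside CH-H1, no breed difference in ZG or H2, and no phase difference within HF passed the thresholds under any alternative. In the limma voom model, no replicate block moved the breed difference to −0.50 in ZG and −0.59 in H2, and the number of genes called in the latter from 21 to 10, and it ended or made no call of HES1. Several RFI differences near 0 changed sign. In CH-ZG the difference was 0.045 with all libraries and 0.12 with the share of the 10 highest genes as covariate. Over 5 groups, an edgeR quasi-likelihood fit with no replicate block gave −0.056.

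With 1 steer left out, the RFI difference of CH-ZG ranged from −0.22 to 0.086, that of CH-H2 from −0.25 to 0.35, that of HF-H1 from −0.24 to 0.21, that of HF-ZG from −0.31 to −0.05, that of HF-H2 from −0.012 to 0.38 and that over 5 groups from −0.029 to 0.10. Breed differences ranged from 0.22 to 0.39 in H1, −0.59 to −0.31 in ZG (the latter without steer 1843) and −0.75 to −0.48 in H2. CH phase differences ranged from −0.71 to −0.45 for ZG minus H1, −0.24 to 0.11 for H2 minus ZG and −0.83 to −0.58 for H2 minus H1, and those of HF from 0.09 to 0.24, −0.046 to 0.12 and 0.10 to 0.30 in the same order. The breed difference in H1 and the CH differences of ZG and H2 from H1 hold CH-H1 libraries and carry no test here.

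The within-steer differences were −0.74 for ZG minus H1 with TMM, and −0.47 for H2 minus ZG with all libraries. Correlations with HES1 changed as follows. With all libraries r was 0.16 for SOX18, 0.32 for adipocyte, 0.093 for leukocyte and −0.31 for plasma protein genes. With TMM it was −0.0042 for leukocyte, 0.19 for immediate-early and 0.10 for glucocorticoid-responsive genes. Without steer 1843 it was 0.25 for leukocyte, 0.24 for immediate-early and 0.035 for plasma protein genes, and with TMM as well −0.087 for leukocyte, 0.082 for immediate-early and 0.044 for glucocorticoid-responsive genes, 0.21 for depth, −0.23 for the share of the 10 highest genes and 0.22 for the number of genes. The cause of these changes was not tested.

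The numbers of genes called also moved. With all libraries, breed calls went from 145 to 4 in ZG and from 21 to 1 in H2, CH H2 minus ZG calls from 103 to 38, and HF calls from 57 to 8, 649 to 227 and 1588 to 846 for ZG minus H1, H2 minus ZG and H2 minus H1. In the edgeR quasi-likelihood fit without the block, breed calls in ZG were 298 and HF H2 minus H1 calls 979. Without the filter on low counts, breed calls were 67 in ZG and 12 in H2. With the covariate, calls were 37 for breed in H2, 177 for CH H2 minus ZG, 93 for HF ZG minus H1 and 658 for HF H2 minus H1. Genes at an unadjusted p under 0.05 between RFI classes numbered 259 to 2264 in HF-ZG, 274 to 714 in HF-H1, 72 to 515 in HF-H2, 71 to 471 in CH-H2, 72 to 590 in CH-ZG and 137 to 1011 over 5 groups, alternatives included. The number of genes tested differed between these fits, as with 18133 in HF-ZG without the filter on low counts against 10571 with it. Depth sets a limit of up to 1.36 CPM for HES1 in the shallowest library used.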
